A study of Rattus norvegicus with 3 samples.

Results

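The 9 genes of myelin and of the cells that make it, out of 8899 genes that could be named on the array, were followed in the rat vestibular nuclei after removal of the balance organ of the left ear. They are Mbp, Mog, Mag, Mobp, Cnp, Mal, Ermn, Aspa and Olig1. Each was found through the RefSeq accession that the scanner files give for a probe, which yielded 12 probes of 41012. Mbp, Mobp and Mog had 2 probes each and the other 6 genes had 1, and every one of the 12 lay on 1 spot. All 12 probes were well above background and none was saturated on any array, so no gene was lost to a filter.

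Each group was 1 Agilent array, read in 1 colour with the dye Cy3, of total RNA taken from 3 rats for each group (male adults of the Sprague-Dawley strain, 200 to 250 g in weight). The groups were the vestibular nuclei on the operated side at day 1 after left labyrinthectomy (removal of the inner ear's balance organ), the same at day 7, and the vestibular nuclei of controls. For the control, the labels name a sham operation but the protocol text names normal animals, and neither gives the side; it is called sham here. No array was repeated, so a difference below is a difference between 2 arrays, each of 3 rats' tissue, and has no error from animals or dissections, no test of the conditions was possible, and no p-value is given.

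Oligodendrocytes wrap the axons of the brain and spinal cord in myelin, a stack of tightly packed membrane that speeds the conduction of impulses. Myelin basic protein glues the inner faces of this membrane together, and Mbp mRNA is carried out to the growing sheath and translated there. Other proteins sit at the face of the sheath that touches the axon or at its outermost surface, and a set of enzymes supplies the sheath's lipids. The vestibular nuclei of the brainstem lie among heavily myelinated tracts. In RNA from whole tissue, fewer cells of a type and less RNA per cell cannot be told apart.

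For 6 of the 9 genes, 7 promoters were listed in the RefSeq table of build GRCr8 (Mbp with 2), and 4 were chosen to be shown. They hold a motif named after a factor of the lineage and belong to genes that stood at different places in the results. A promoter of Mbp also holds such a motif and is not shown. Each stretch is the 250 bases before the annotated start, 5′ to 3′ along the gene. Capitals mark CTGGCAC, the core letters bound by the myelin regulatory factor MYRF (known from mouse), AACAAT, a core of SOX factors such as SOX10, and CAGCTG, an E-box of the kind that basic helix-loop-helix factors bind, each on either strand.
Mag, chr1:95291045-95291294, minus strand: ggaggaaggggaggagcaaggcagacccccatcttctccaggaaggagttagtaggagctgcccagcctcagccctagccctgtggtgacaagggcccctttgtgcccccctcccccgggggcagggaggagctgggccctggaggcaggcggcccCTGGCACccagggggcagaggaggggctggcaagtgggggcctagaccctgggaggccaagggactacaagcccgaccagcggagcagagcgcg
Cnp, chr10:86011254-86011503, plus strand: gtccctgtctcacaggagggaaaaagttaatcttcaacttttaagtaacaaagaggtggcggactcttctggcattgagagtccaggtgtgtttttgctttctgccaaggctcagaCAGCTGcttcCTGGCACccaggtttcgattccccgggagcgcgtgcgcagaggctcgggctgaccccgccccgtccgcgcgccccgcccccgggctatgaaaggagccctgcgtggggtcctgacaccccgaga
Mal, chr3:135341424-135341673, minus strand: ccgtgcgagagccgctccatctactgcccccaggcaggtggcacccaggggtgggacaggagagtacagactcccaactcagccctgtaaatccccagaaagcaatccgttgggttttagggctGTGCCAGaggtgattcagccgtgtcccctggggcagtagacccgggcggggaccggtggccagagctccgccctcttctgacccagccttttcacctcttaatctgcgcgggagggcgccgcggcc
Aspa, chr10:58439038-58439287, minus strand: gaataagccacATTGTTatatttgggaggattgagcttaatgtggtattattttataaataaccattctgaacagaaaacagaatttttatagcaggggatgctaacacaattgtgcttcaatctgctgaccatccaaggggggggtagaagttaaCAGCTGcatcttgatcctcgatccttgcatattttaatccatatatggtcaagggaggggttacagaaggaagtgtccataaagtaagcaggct
CTGGCAC stood in the promoters of Mag, Cnp and Mal, 94, 124 and 126 bases before the start in that order, and in 3.78% of all 33469 promoters of the same length. AACAAT stood in the Aspa promoter and in one of the Mbp promoters, and in 10.3% of all. CAGCTG stood in those of Cnp, Aspa and the same Mbp start, and in 4007 of the 33469. The Mobp promoter held none of the 3. The motifs do not overlap one another in these promoters, and a match of letters is a description and not a binding site.

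Mbp, the best known structural gene of compact myelin, was lower on both arrays after surgery than in sham. Levels are log2 intensities after subtraction of the 75th percentile of that array, so 0 is the brightness that 75% of the spots stay under, and a fold is a difference of 2 such levels. By its brighter probe (A_43_P11782) Mbp stood at 2.06 at day 1, 1.46 at day 7 and 2.75 in sham. The sham array was the highest and the day 7 array the lowest, and the log2 folds against sham were -0.69 at day 1 and -1.29 (2.44-fold lower) at day 7. The other probe (A_44_P334799) stood at 1.25 at day 1, 0.76 at day 7 and 1.75 in sham. It kept the same order, with log2 folds of -0.51 at day 1 and -0.997 at day 7, the second just short of 2-fold.

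**Figure D1:**
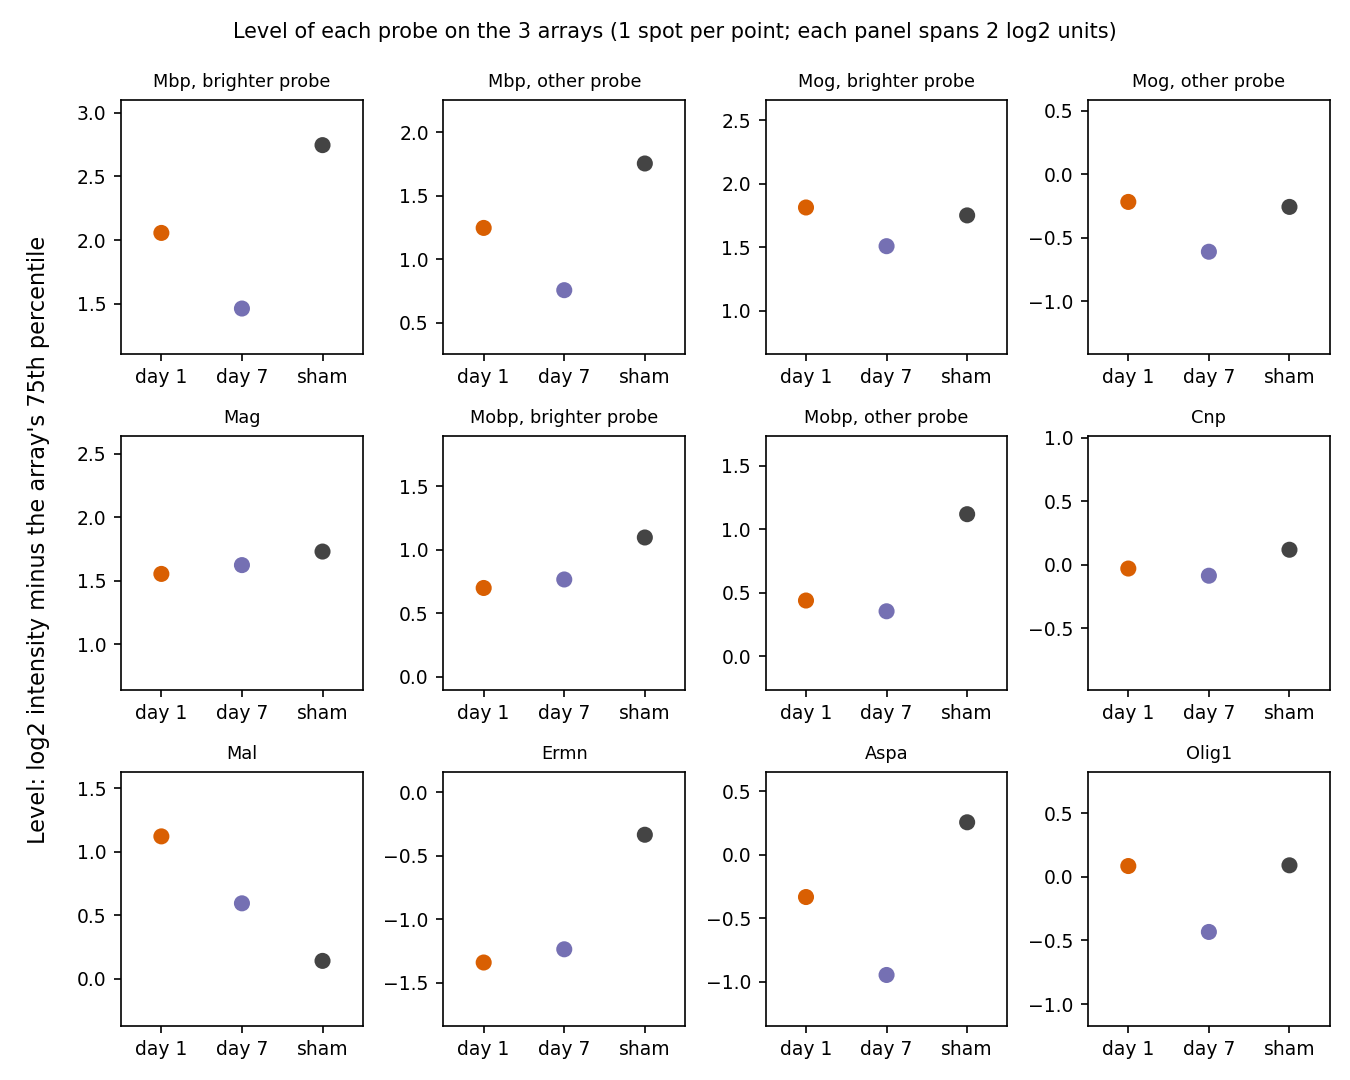
Level of each of the 12 probes (log2 intensity relative to the 75th percentile of its array, vertical axis) on the day 1, day 7 and sham arrays (horizontal axis), 1 spot per point and with no error bars because no array was repeated. Each panel spans the same 2 log2 units, so differences can be set side by side: Mbp and Aspa are lowest at day 7 and highest in sham, Ermn is low on both arrays after surgery, and Mal is the only gene lowest in sham.

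Mobp, a small basic protein of compact myelin found in the central nervous system, was likewise lower after surgery by both probes. Its brighter probe (A_44_P245674) stood at 0.70 at day 1, 0.77 at day 7 and 1.10 in sham, with log2 folds against sham of -0.40 and -0.33. Its other probe (A_44_P167930) stood at 0.44 at day 1, 0.35 at day 7 and 1.12 in sham, with log2 folds of -0.68 and -0.76. The sham array was the highest by both probes, and days 1 and 7 differed by 0.07 and 0.08, less than the spread of replicate spots. The 2 probes of Mobp differed from each other by 0.28 at day 1 and 0.43 at day 7 in their log2 folds.

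Mal, a membrane protein with several membrane-spanning stretches that helps sort proteins into the sheath, went the other way. It stood at 1.12 at day 1, 0.59 at day 7 and 0.14 in sham, with log2 folds against sham of 0.98 (1.97-fold higher) at day 1 and 0.45 at day 7. It was the only one of the 9 genes whose lowest level was in sham, and it rests on 1 probe.

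Of the genes at the sheath's inner and outer faces, Ermn was lower after surgery while Mag and Mog were close to sham. Ermn encodes ermin, a protein that binds actin in the processes of oligodendrocytes late in myelination. It stood at -1.34 at day 1, -1.24 at day 7 and -0.33 in sham, with log2 folds against sham of -1.01 (2.01-fold lower) at day 1 and -0.90 (1.87-fold lower) at day 7. The 2 days differed by 0.10, less than the spread of spots, while sham lay apart from both. Mag, the adhesion protein that faces the axon, stood at 1.55 at day 1, 1.62 at day 7 and 1.73 in sham. Its log2 folds against sham were -0.18 and -0.11, and the gaps from day 1 to day 7 and from day 7 to sham were both inside the spread of spots. The gap from day 1 to sham, 0.18, was beyond the spread of 0.12 for that comparison.

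Mog, a glycoprotein of the outermost surface of the sheath, was at its sham level at day 1 and somewhat lower at day 7 by both probes. Its brighter probe (A_43_P12283) stood at 1.81 at day 1, 1.51 at day 7 and 1.75 in sham. Its other probe (A_44_P397725) stood at -0.22 at day 1, -0.61 at day 7 and -0.26 in sham. The log2 folds against sham were 0.06 and 0.04 at day 1, and -0.24 and -0.35 at day 7. Day 1 and sham differed by less than the spread of spots by both probes, and the day 7 array was the lowest by both.

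Aspa, the enzyme that splits N-acetylaspartate and so frees acetate for lipid synthesis, followed the order of Mbp. It stood at -0.33 at day 1, -0.95 at day 7 and 0.25 in sham, with log2 folds against sham of -0.59 at day 1 and -1.20 (2.30-fold lower) at day 7. Cnp, a cyclic nucleotide phosphodiesterase abundant in the cytoplasmic channels of myelin, was close to sham. It stood at -0.03 at day 1, -0.08 at day 7 and 0.12 in sham, with log2 folds of -0.15 and -0.20. Its levels at the 2 days differed by less than the spread of spots.

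Olig1, a transcription factor of the oligodendrocyte lineage, was the only regulator among the 9. It stood at 0.09 at day 1, -0.43 at day 7 and 0.09 in sham. Day 1 and sham were level (log2 fold -0.01), and the day 7 array was lower, with log2 folds of -0.52 against sham and -0.52 against day 1.

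**Figure D2:**
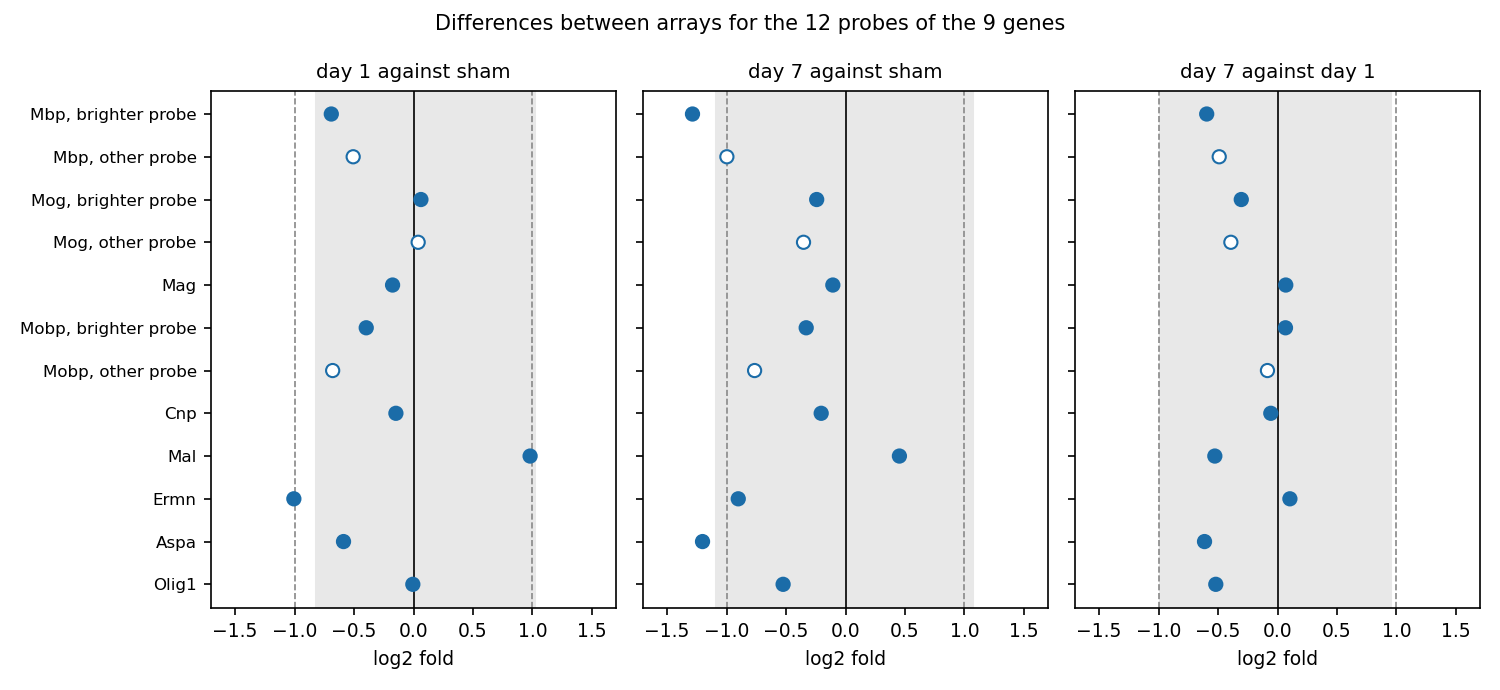
Log2 fold of each of the 12 probes (horizontal axis; filled for the brightest probe of a gene, open for its other probe) in day 1 against sham, day 7 against sham and day 7 against day 1. The grey band holds the middle of the brighter genes of the array, between their 5th and 95th percentiles, and dashed lines mark 2-fold; Ermn lies below the band at day 1, and Mbp and Aspa lie below it at day 7.

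Counted over the 9 genes by their brightest probe, 1 of 9 was at least 2-fold lower at day 1 against sham (11.1%), none was 2-fold higher, and 7 of 9 were below 0. Over all 6292 named genes measured on both arrays, 4.37% were at least 2-fold lower, 8.26% at least 2-fold higher and 49.9% below 0. The median log2 fold of the 9 genes was -0.18, beside 0.00 for all genes and -0.07 for the 3314 brighter genes, those above the median detected probe on at least 1 of the 2 arrays. In that brighter set 3.5% were at least 2-fold lower and 58.5% were below 0. With 9 genes, 1 past 2-fold is close to the background. Within the brighter set, counting the gene itself, 115 genes were as low as Ermn or lower, 245 as low as Mbp, 323 as low as Aspa, and 176 as high as Mal or higher.

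At day 7 against sham, 2 of the 9 genes (22.2%) were at least 2-fold lower, Mbp and Aspa, none was higher, and 8 of 9 were below 0, all except Mal. Over all 6261 measured genes 5.73% were at least 2-fold lower, 11.1% at least 2-fold higher and 46.7% below 0. The median log2 fold of the 9 genes was -0.33, beside 0.05 for all genes and -0.07 for the 3373 brighter ones, of which 5.69% were at least 2-fold lower and 56.4% below 0. In the brighter set 129 genes were as low as Mbp or lower, 144 as low as Aspa and 231 as low as Ermn. Both comparisons use the same sham array, so they share whatever is particular to it.

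At day 7 against day 1, which does not use the sham array, none of the 9 genes was past 2-fold, beside 5.32% lower and 6.56% higher of 6142 measured genes. Of the 9 genes 6 were below 0, with a median log2 fold of -0.30, beside 0.04 for all genes, of which 46.4% were below 0. Of the 3261 brighter genes, 5% were at least 2-fold lower and 49.3% below 0. Aspa (-0.61), Mbp (-0.60), Mal (-0.53), Olig1 (-0.52) and Mog (-0.30) were lower at day 7. Mag (0.07), Mobp (0.07), Ermn (0.10) and Cnp (-0.06) were level within the spread of spots. Mal was nearer to sham at day 7 than at day 1, whereas Mbp and Aspa were farther from it.

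How closely a fold is measured can be read from repeated spots and from second probes. The spots of probes printed several times had a median SD of 0.08 (day 1), 0.08 (day 7) and 0.10 (sham) on the log2 scale within an array, which makes the spread of a fold 0.12 (day 1 against sham), 0.13 (day 7 against sham) and 0.11 (day 7 against day 1). Where a gene had 2 brighter probes, their log2 folds differed by a median of 0.24 over 437 genes at day 1 against sham and by 0.29 over 449 genes at day 7 against sham, with 90th percentiles of 0.90 and 1.04. The probes of Mbp differed by 0.18 and 0.29, and those of Mog by 0.02 and 0.11, in those comparisons. Mal, Ermn, Aspa, Olig1, Mag and Cnp had no second probe.

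The wider lineage was described with a list of 74 genes in 7 roles, which includes the 9; 49 of them were matched to a probe. At day 1 against sham, 2 of 40 measured genes (5%) were at least 2-fold lower, Ermn and Ndrg1, beside 4.37% of all named genes. None was at least 2-fold higher, beside 8.26% of all, and the median log2 fold was -0.17. At day 7 against sham, 6 of 41 (14.6%) were at least 2-fold lower, among them Mbp, Aspa, Cryab, Klk6 and Ndrg1. The share of all named genes was 5.73%. In the other direction 1 was at least 2-fold higher (Egr2), beside 11.1% of all, and the median was -0.33. At day 7 against day 1, 1 of 39 (2.56%) was at least 2-fold lower (Hapln2) and none was higher, with a median of -0.09. Among all named genes, 5.32% were at least 2-fold lower in this comparison and 6.56% at least 2-fold higher. The call of Hapln2 came from 1 of its 2 probes (-1.21), while the second had the opposite sign (0.23). Without the 9 genes and the peripheral list, the median was -0.20 at day 1 and -0.35 at day 7, over 29 genes in each comparison.

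Of 13 measured genes of compact myelin and membranes, 1 was at least 2-fold lower at day 1 (Ermn) and 1 at day 7 (Mbp). Over all named genes the shares were 4.37% and 5.73%, so 1 gene of 13 is close to the background. The medians of the 13 were -0.20 and -0.38. Gpr37, a receptor of oligodendrocytes, was at -0.41 and -0.67, Omg, the oligodendrocyte myelin glycoprotein, at -0.25 and -0.72, and the tight junction protein of myelin Cldn11 at 0.28 and 0.52.

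Enzymes and cytoskeletal genes of the list had lower medians than the membrane genes. Of the enzymes, none of 8 measured was past 2-fold at day 1 (median -0.44). At day 7, 2 of 7 were at least 2-fold lower (median -0.62), beside 5.73% of all named genes. Klk6, a secreted protease of oligodendrocytes, stood at 0.41 at day 1, 0.09 at day 7 and 1.26 in sham, with log2 folds of -0.85 and -1.16. Enpp2, also called autotaxin, was at -0.65 and -0.74, and Elovl1, which elongates very long fatty acids, at 0.21 and -0.62 (0.36 and -0.47 by its other probe). Ugt8, which makes the myelin lipid galactosylceramide, was measured at day 1 (-0.37) but was not well above background at day 7, at least 2.12-fold lower than sham by a dim probe.

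Of 5 measured cytoskeletal and polarity genes, 1 was at least 2-fold lower at day 1 and 2 at day 7. The shares of all named genes were 4.37% and 5.73%. The medians of the 5 were -0.37 and -0.92. Cryab, a small heat shock protein abundant in oligodendrocytes, stood at 2.62 at day 1, 1.96 at day 7 and 3.34 in sham, with log2 folds of -0.71 and -1.38. Ndrg1, which is also induced by low oxygen, was at -1.04 and -1.06, and its other probe gave -1.10 and -0.83. Septin4, a filament-forming protein, was at -0.37 and -0.92, while Bcas1, a marker of newly myelinating cells, was at 0.55 and 0.03.

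Among junction genes, the 2 probes of Hapln2, a link protein of the node's matrix, differed in sign at day 7. The brighter gave 0.86 at day 1 and -0.35 at day 7, and the other 0.40 and 0.63. Cntn2, the contactin that joins glia to axon beside the paranode, was at -0.52 and -0.77. None of the 4 measured genes of this role was past 2-fold against sham. All 3 measured transcription factors were below 0 in both comparisons and none was past 2-fold: Sox10, which holds oligodendrocytes in their identity, was at -0.13 and -0.15, and Zeb2 at -0.39 and -0.21, beside Olig1, whose sign at day 1 changed with the processing. Olig2 and the precursor receptor Pdgfra were not matched to a probe.

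Genes of precursors and newly formed cells had a higher median log2 fold against sham at day 7 than the genes of compact myelin. None of 5 measured was past 2-fold at day 1 (median -0.02). At day 7, 4 of 6 were above 0, with a median of 0.41, and 1 was at least 2-fold lower, beside 5.73% of all named genes. Cspg4, the NG2 proteoglycan that marks precursors, stood at -1.41 at day 1, -0.78 at day 7 and -1.39 in sham, a log2 fold of 0.61 at day 7. Bmp4, a signal that restrains oligodendrocyte maturation, was at 0.72 and Ptprz1, a receptor phosphatase of precursors and astrocytes, at 0.61 at day 7. All 5 genes measured on both arrays were above 0 at day 7 against day 1, with a median of 0.50. The difference between these genes and the myelin genes has no test.

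Genes of peripheral myelin, which Schwann cells make around the roots of nerves near these nuclei, were included as markers of another myelinating cell. Prx, a scaffold protein of Schwann cells, and Drp2, which binds it, were not well above background on any array. Pmp22 was at -0.03 and -0.45 against sham. Egr2, which drives peripheral myelination and is also an activity gene of neurons, was at 2.86 at day 7 and not well above background at day 1.

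**Figure D3:**
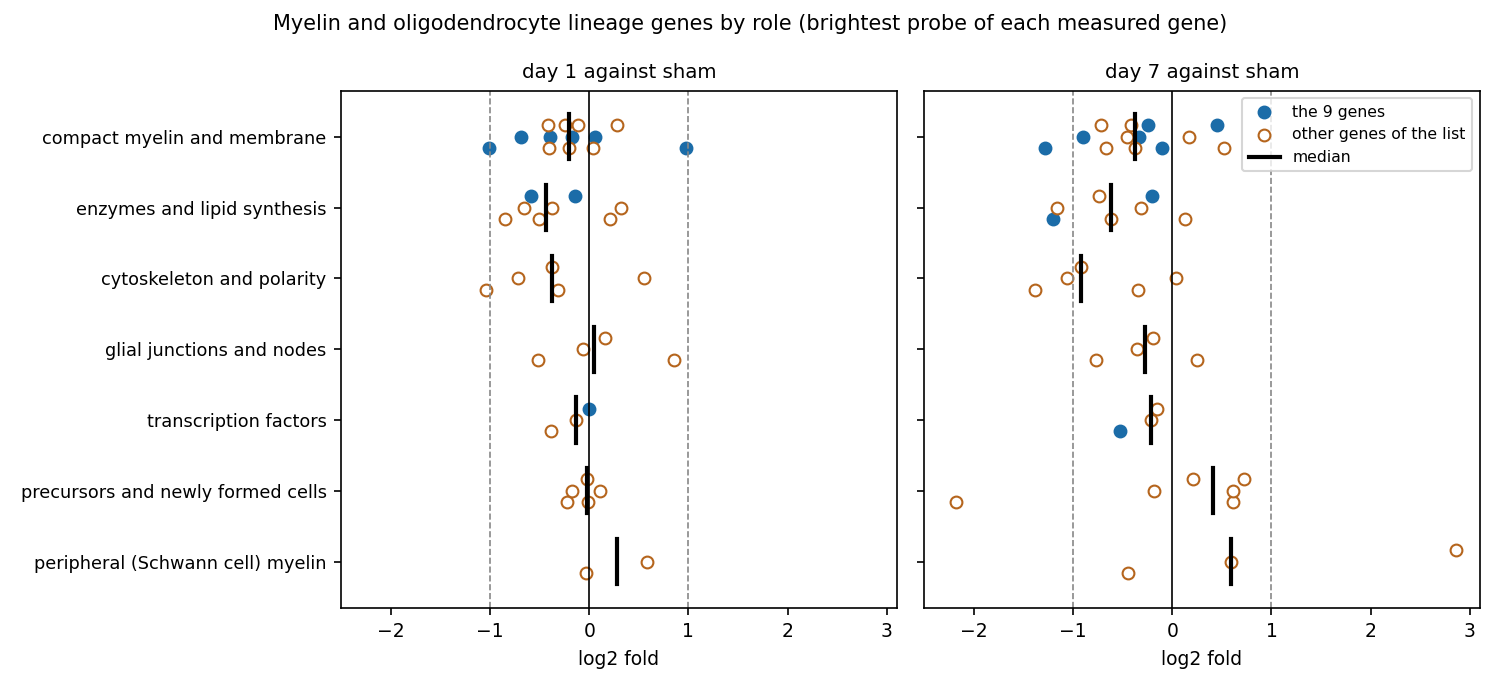
Log2 folds of the measured genes of the wider list (horizontal axis) by role (rows), day 1 against sham on the left and day 7 against sham on the right, each gene by its brightest probe. Filled points are the 9 genes, open points the other genes, black bars the median of a role and dashed lines 2-fold; the cytoskeletal median is -0.37 at day 1 and -0.92 at day 7, while that of precursor genes is 0.41 at day 7.

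Of 11 oligodendrocyte markers, 8 are among the 9 genes themselves; the other 3, Cldn11 and Opalin among them, were also well above background on every array. The sum of the intensities of all 11, each divided by the array's 75th percentile, was 28.2 at day 1, 23.5 at day 7 and 32.5 in sham. Markers of other cells differed between the arrays too, and their sums below take only markers with a value and no saturation on all 3 arrays. Of 9 neuronal markers, 3 were at least 2-fold lower at day 7 against sham, the neurofilaments Nefh (-2.30), Nefl (-1.61) and Nefm (-1.17). The rest did not share a fall of that size. Snap25 (0.47) and Stmn2 (0.197) were above 0, and Syt1 (-0.13), Map2 (-0.26), Tubb3 (-0.498) and Thy1 (-0.83) were below it. The summed level of the 9 was 24.6 at day 1, 17.4 at day 7 and 26.9 in sham. Nefm was the brightest of the 9 in sham, so the sum leans on the neurofilaments. At day 7 against sham 7 of the 9 were below 0, with a median log2 fold of -0.498. Over all named genes 46.7% were below 0 and 5.73% at least 2-fold lower. Of 7 astrocyte markers, 1 was at least 2-fold higher at day 1 and 2 were at day 7 against sham. The shares of all named genes were 8.26% and 11.1%. At day 7, 4 of the 7 were above 0 and 3 below, Gfap (-0.26), Slc1a3 (-0.18) and Aldoc (-0.41). S100b had log2 folds of 3.19 at day 1 and 1.89 at day 7, and Aqp4, the water channel of astrocytes, had 0.05 at day 1 and 1.25 at day 7, while the summed level was 12.6 at day 1, 12.4 at day 7 and 12.6 in sham. The summed level of 7 microglia and macrophage markers was 2.46 at day 1, 5.20 at day 7 and 4.00 in sham. It includes Itgam, Cd68 and Cx3cr1, which were not well above background on every array. Of 6 such markers measured at day 7 against sham, 4 were above 0, with C1qa (0.96) the highest. Aif1 (-0.15) and Cd68 (-0.53) were below 0.

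Choroid plexus, the tissue that lines part of the ventricle near these nuclei, was read from 5 markers, of which 3 were measured at day 7 against sham. Of these, 2 were at least 2-fold higher, Folr1 (1.72) and Sostdc1 (1.86), and Ttr was at -0.10. The share of all named genes at least 2-fold higher was 11.1%. At day 1 against sham, of 4 measured, Kcnj13 (1.55) was at least 2-fold higher and Ttr (-1.20) at least 2-fold lower. The summed level of the 5 was 0.581 at day 1, 1.26 at day 7 and 0.708 in sham. It includes Clic6, which was not well above background on any array. Endothelial markers had none past 2-fold, with a summed level over 4 of 3.23 at day 1, 3.57 at day 7 and 3.50 in sham. Of the 2 hindbrain markers matched, Slc6a5 and Hoxa2 stood at 0.33 and 0.58 at day 1 and at 0.45 and 0.57 in sham, but at day 7 Slc6a5 had a log2 fold of -5.26 against sham and Hoxa2 was not well above background, each by 1 spot. The part of these differences in the values of the myelin genes was not tested.

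The genes whose pair of log2 folds against sham lay nearest to each of the 9 were sought among 3431 other brighter genes, by Euclidean distance over the 3 arrays. Mbp lay nearest to Lman1 (-0.63 and -1.29), Slc12a2 (-0.75 and -1.26) and Pdcd4 (-0.61 and -1.25), and Aspa to Grifin (-0.60 and -1.15), Pdcd4 and Tgfa (-0.61 and -1.16). Ermn lay nearest to Adam23, Mprip and Dus1l, and Mal to Rdh11, Or2ak6 and Limk2. Within a distance of 0.25 there were 22 genes for Mbp, 33 each for Aspa and Mal and 35 for Ermn, against 284 for Olig1, 452 for Mobp, 571 for Mog, 795 for Cnp and 809 for Mag. The nearest 3 were Psenen, Cgrrf1 and Lrrc59 for Mag, Ube2d3, Ddx39b and Gria4 for Cnp, Maea, Kcna3 and Hspa8 for Mog, Adora1, Kcnj8 and Rps15a for Mobp, and Rps25, Tspan17 and Mrpl40 for Olig1. With 3 arrays such nearness is a description of 2 numbers per gene.

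**Figure D4:**
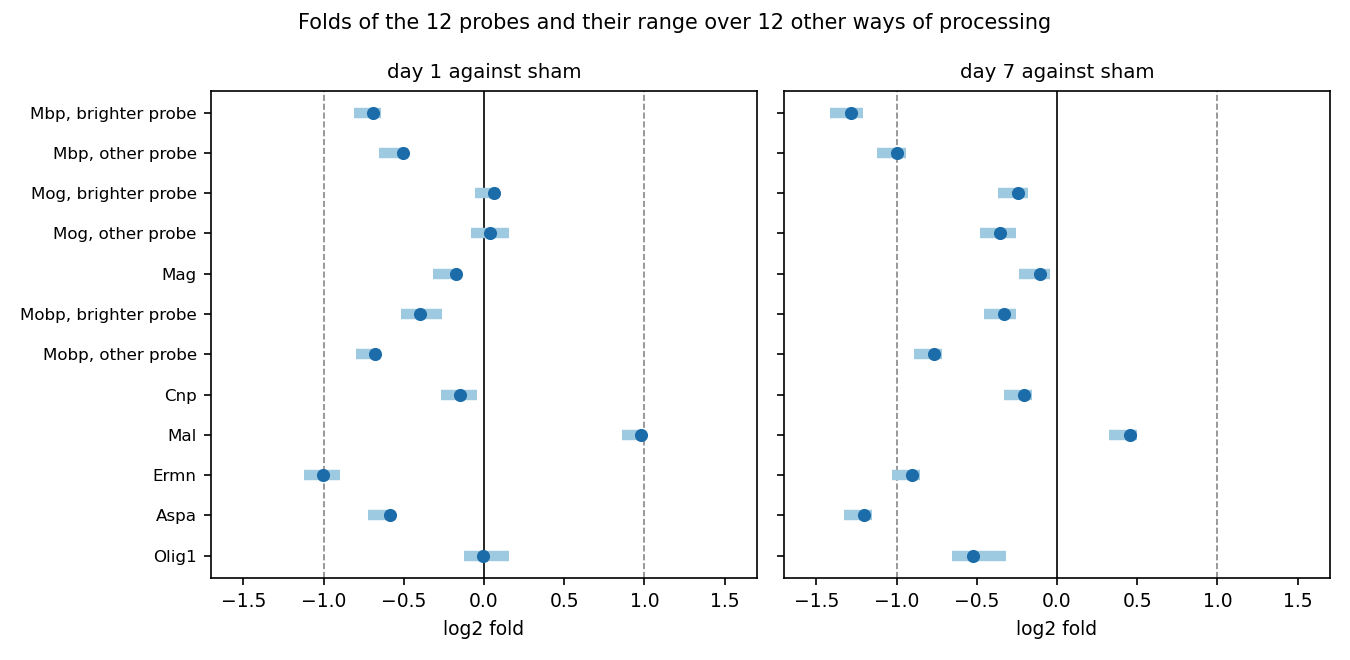
Log2 fold of each of the 12 probes against sham (points) with its range over 12 other ways of processing the same files (bars), day 1 on the left and day 7 on the right, dashed lines at 2-fold. Mbp by its brighter probe and Aspa stay past 2-fold at day 7 in all 12, while Ermn at day 1 lies on the 2-fold line, from -1.12 to -0.90.

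Whether a gene passed 2-fold depended on the processing for Ermn, for Mal and for the other probe of Mbp, and not for Aspa or the brighter probe of Mbp at day 7. Ermn was at least 2-fold lower at day 1 in 8 of the 12 other ways of processing, and at day 7 in 1. Mbp by its brighter probe ranged from -1.41 to -1.21 at day 7, its other probe from -1.12 to -0.94, and Aspa from -1.33 to -1.15. Mal ranged from 0.86 to 1.00 at day 1, and passed 2-fold in 1 of the 12.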

How the data were processed

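Per the labels' protocols, RNA was extracted with a column kit and 1 µg was amplified and given the dye Cy3. Agilent Feature Extraction 10.7.3.1 is named per the file headers, with all arrays on 1 slide at positions 3 (day 1), 2 (day 7) and 4 (sham), so position and group cannot be told apart. The deposited processed intensity of each spot is linear, background-subtracted and not scaled between arrays. The authors' series table holds the same intensity within 0.1 percent for 99.7% of its values.

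Here log2 of the processed intensity was taken minus the array's 75th percentile of non-control spots, which was 5242 (day 1), 5676 (day 7) and 5692 (sham). Spots with an outlier flag were left out and spots of a probe averaged. Probes were named through RefSeq accessions (assembly GRCr8), which matched 10768 of 41012 probes. The scanner files used here carry no gene name column. The brightest probe on average stood for its gene, which counted as measured if neither array had it saturated or short of well above background. A gene was called at 2-fold. A dim probe gives a bound against the lowest signal well above background on that array. Spots well above background made up 77.3% (day 1), 76.9% (day 7) and 81.3% (sham). With 1 array per group precision is limited by the number of arrays.

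The 9 genes and the gene lists were chosen with earlier results of these data known. The text names all 9, the genes of each role past 2-fold, and up to 3 more farthest from 0, with Olig2, Sox10 and Pdgfra among those named whatever their values. A few genes of the lists count in the totals and are not reported here by name. The steps were tested on simulated data. Alternatives were run with limma 3.58.1 in R 4.3.3 and with Python 3.11.15; normexp (offset 50) used the median spot signal, since the mean was not at hand. The alternative before spatial detrending was added after seeing the data.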

Additional observations from a re-analysis of the deposited data

How the results depend on the processing

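No paired analysis was possible because each group has 1 array. Results were recomputed under 13 alternatives, 12 for single probes. No difference past 2-fold changed direction. Of the counts and medians, 211 values stayed close to the main one (counts within 1.5 times, medians within the spread of spots) and 23 did not. The count of the 9 genes at least 2-fold lower at day 1 against sham was 0 instead of 1 with the 75th percentile over detected probes, normexp, the series table and the signal before detrending. It was 1 instead of 0 for higher genes under cyclic loess. Their median log2 fold at day 7 against sham was -0.46 when scaled by the median and -0.52 with the mean of a gene's probes, and at day 7 against day 1 it was -0.19 without scaling. For the wider list the median was -0.46 at day 7 against sham when scaled by the median, and 0.027 at day 7 against day 1 without scaling, against -0.09 as reported. Its lower genes at day 1 numbered 1 (detected probes, series table), 0 (normexp, before detrending) or 4 (no filter), and its higher genes 1 (cyclic loess, normexp, before detrending). Its higher genes at day 7 against sham numbered 2 (no filter) or 0 (brighter probes). At day 7 against day 1 its lower genes numbered 2 (no filter) or 0 (mean of probes), and its higher genes 3 (no filter).

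Relative to the median of all genes, the median of the 9 was between -0.29 and -0.11 at day 1 and between -0.58 and -0.26 at day 7 against sham. Scaling by the median set the median of all genes to -0.10 at day 1 and -0.08 at day 7 against sham, and no scaling set it to -0.12 at day 1 against sham and to 0.15 at day 7 against day 1. All genes past 2-fold numbered 795, 1057 and 730 in the 3 comparisons, and 1569, 1983 and 1571 without the filter on dim probes. With brighter probes only they numbered 289, 387 and 312. The share of higher genes among them was 65.4% at day 1 and 66.0% at day 7 against sham, and 53.6% at day 1 without scaling, 55.4% at day 1 and 54.2% at day 7 when scaled by the median, 55.1% at day 7 under cyclic loess and 50.4% at day 7 with brighter probes; at day 7 against day 1 it was 55.2%, and 66.0% without scaling. At day 1 the sign of Mog and Olig1 changed between settings, as did those of Cnp, Ermn and Mobp at day 7 against day 1, all within 0.22 of 0. The causes were not tested.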

Other observations

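Several myelin genes were too bright to compare, and are named after their values were seen. The brightest probes of Tspan2, a tetraspanin of oligodendrocytes, and of Hmgcs1, an early enzyme of cholesterol synthesis, were saturated on all 3 arrays. Their other probes gave log2 folds against sham of -0.56 at day 1 and -0.51 at day 7 for Tspan2, and of 0.51 and 0.21 for Hmgcs1. Plekhb1 was saturated at day 1 and in sham, and Qdpr at day 7 and in sham, and neither had another measured probe.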
